A study of Danio rerio with 20 samples.

Results

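The highest and the lowest of 4 exposures to HFPO-DA were compared with each other in whole zebrafish embryos of the AB strain, 10 mg/L against 0.5 mg/L. The members of this comparison are the 4 pools labelled 10 mg/L and the 4 pools labelled 0.5 mg/L, which are 8 of the 19 pools that have values, and the control pools take no part in its main test. Embryos of both groups were exposed from the sphere stage to 72 h post fertilization (hpf) in individual wells with pH-neutralized solution, and 8 to 10 whole embryos were pooled for each library. The 10 mg/L pools a to d held 10, 9, 10 and 8 embryos and the 0.5 mg/L pools a to d held 10, 8, 10 and 10 embryos. The sources do not say whether pools came from separate clutches, so p-values measure the spread between pools, part of which may be technical. The question is which genes and functions differ between exposures that are 20-fold apart.

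HFPO-DA (hexafluoropropylene oxide dimer acid, sold as GenX) is a short perfluorinated ether acid that replaced perfluorooctanoic acid in fluoropolymer production. In rodents it activates the nuclear receptor PPARalpha, which turns on genes of fatty acid transport and of fatty acid oxidation in mitochondria and peroxisomes. At 72 hpf a zebrafish embryo has a beating heart, contracting trunk muscle, primitive red cells filled with embryonic globins, a lens packed with crystallins and a retina in which cones have begun to respond to light. RNA from a whole embryo holds all of these tissues at once, so fewer cells of a type and less RNA per cell cannot be told apart.

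The libraries were shallow and of unequal depth. The 10 mg/L pools held 321184, 298728, 275250 and 104350 reads on genes (pools a to d) and the 0.5 mg/L pools held 173301, 143986, 204179 and 443076 reads. The shallowest library of the series is thus 10 mg/L pool d, and 0.5 mg/L pool d is the deepest of these 8. Values are TMM-normalized expression as deposited, in which 1 read is worth between 0.641 and 2.42 units depending on the pool and a gene without a read carries 0.5 reads. They are not CPM (reads rescaled to a common library total) and are not corrected for gene length, so levels are compared between pools and not between genes. Markers of skeletal muscle, skin, lens, cones, pigment cells, neurons, liver, cartilage and intestine had reads in all 8 pools. Of 4 heart markers 1 had reads in all 8 pools, and neither of 2 pancreas markers did.

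No gene passed the test between 10 and 0.5 mg/L. Of 6850 genes with a mean of nearly 3 CPM or more, limma (a two-sided test of log2 values with 0.5 added) called 0 at a Benjamini-Hochberg adjusted p under 0.1, which is 0% of the genes tested, and the smallest adjusted p was 0.782. An unadjusted p under 0.05 was found for 161 genes that were higher at 10 mg/L (2.35%) and 159 that were lower (2.32%), together 320 or 4.67%. On the reads recovered from the values, edgeR's quasi-likelihood test called 1 gene, gamt, and DESeq2 called 0. The median log2 fold change of all genes was 0.01.

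**Figure D1:**
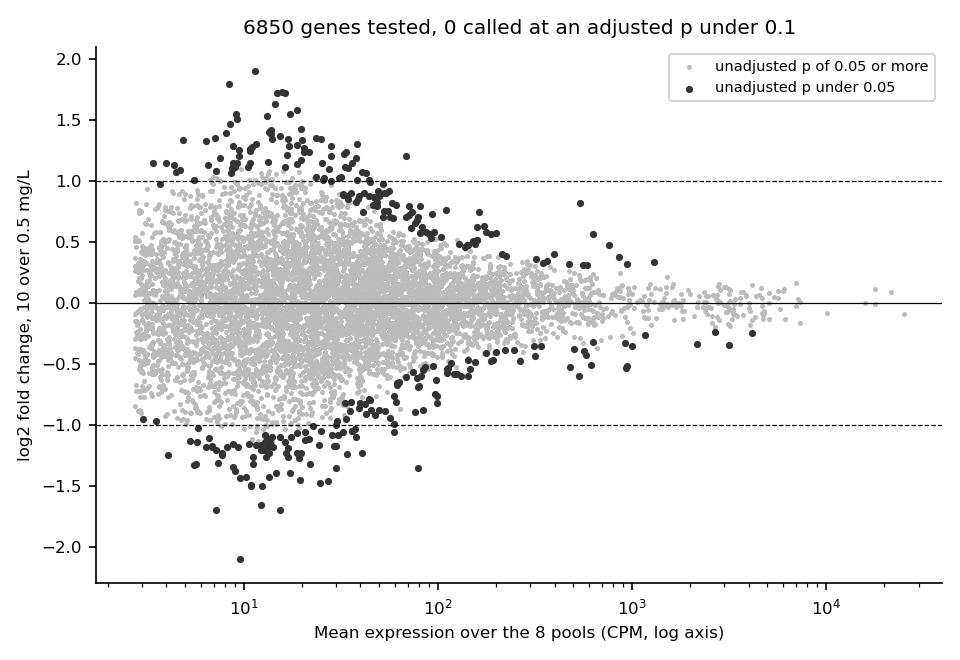
Log2 fold change of 10 over 0.5 mg/L (vertical axis) against the mean expression over the 8 pools in CPM (horizontal axis, log scale) for the 6850 genes tested. Black points have an unadjusted p under 0.05 in limma, grey points do not, and dashed lines mark 2-fold differences, which the points of abundant genes do not reach.

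How large a difference these pools could have shown depends on abundance. The 95% confidence interval of the fold change lay wholly within 2-fold in both directions for 2522 genes (36.8%). Among the 1248 genes above 100 CPM this held for 1231 (98.6%), and for 595 of them (47.7%) the interval lay within 0.5 on the log2 scale. Among the 1677 genes below 10 CPM it held for 41 (2.44%), so 2-fold differences of weakly expressed genes were not detectable at this depth. Reads were also simulated for the same genes and pools, with 200 of the 6850 genes changed. There limma recovered 29% of the 100 genes changed by 2-fold and 63% of the 100 changed by 4-fold. Recovery with fewer changed genes was not simulated.

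Many abundant transcripts had log2 fold changes close to 0. Of the 1248 genes above 100 CPM, 68 (5.45%) had an unadjusted p under 0.05 in limma, against 4.67% of all genes. Only some of these are described further on. The fast muscle genes mylpfa (myosin light chain) and pvalb2 (parvalbumin, a calcium buffer) had log2 fold changes of -0.09 and -0.00, with 95% intervals of -0.27 to 0.09 and -0.21 to 0.20. For actc1b, an alpha actin, the values were 7169, 6853, 7071 and 4150.5 in the 10 mg/L pools, against 6234, 5641, 5373 and 5946 in the 0.5 mg/L pools, and the log2 fold change was 0.09 (interval -0.12 to 0.30). The pool that stands low in actc1b is the shallow one, 10 mg/L pool d. Among other abundant genes, the skin keratin krt4 (log2 fold change 0.12), the elongation factor eef1a1l1 (log2 fold change 0.17), the chaperone hsp90ab1 (log2 fold change 0.01), the collagen col1a1a (log2 fold change -0.05) and the muscle creatine kinase ckma (log2 fold change -0.05) all had 95% intervals that lay within 0.5. Ribosomal protein genes also lay close to 0. Of 36 large-subunit genes the log2 fold changes ran from -0.24 to 0.16, and of 31 small-subunit genes from -0.18 to 0.11. The lowest of them, rpl39, had 1029.9, 1170.2, 1187 and 839 in the 10 mg/L pools, against 1126, 1052, 1743 and 1145 in the 0.5 mg/L pools, and 0.5 mg/L pool c stands above the other 7 pools.

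Between the 2 exposures, 90 genes (1.31%) had all 4 pools at 10 mg/L above all 4 pools at 0.5 mg/L, and 107 (1.56%) had all 4 below, together 2.88%. With at least 20 reads in the 8 pools together, these were 65 and 80 genes. The 10 with the smallest unadjusted p in each direction are described next because they lead the ranking. They were picked for not overlapping, so their separation is a description, and 14 of the 20 rest on fewer than 100 reads over the 8 pools.

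Among the genes higher at 10 mg/L, krt97 and lamp1 had the most reads. The keratin krt97 had 49.6, 60.5, 59.8 and 50.8 in the 10 mg/L pools, against 46.2, 32.8, 47.5 and 15.4 in the 0.5 mg/L pools. The log2 fold change of krt97 was 0.75 (standard error 0.24), and 0.5 mg/L pool d lies far below the other pools of its group. The lysosomal membrane glycoprotein lamp1 had 27.5, 24.6, 31.5 and 29.0 in the 10 mg/L pools, against 13.2, 10.9, 23.1 and 19.2 in the 0.5 mg/L pools, a log2 fold change of 0.80 (standard error 0.28). The membrane transporter-like gene hiat1b had 17.7, 13.2, 12.6 and 12.1 in the 10 mg/L pools, against 6.61, 5.46, 4.07 and 8.33 in the 0.5 mg/L pools, a log2 fold change of 1.15 (standard error 0.40). In both genes the gap between the groups was narrower than the range of the 0.5 mg/L pools.

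The remaining 7 of these genes had 21 to 26 reads in all at 10 mg/L. For lmo2, a transcriptional cofactor of blood and vessel precursors, the reads were 5, 7, 7 and 3 in the 10 mg/L pools and 2, 0, 0 and 5 in the 0.5 mg/L pools, a log2 fold change of 1.63 (standard error 0.55). For rilpl1, whose human homolog acts at primary cilia, they were 10, 5, 4 and 2 at 10 mg/L and 1, 0, 0 and 2 at 0.5 mg/L, a ratio of 6.76 with a 95% counting interval of 2.02 to 35.4. The neuronal scaffold gene disc1 had 25 reads at 10 mg/L, against 8 at 0.5 mg/L. The secreted olfactomedin-like gene olfml3a had 23 at 10 mg/L, against 5 at 0.5 mg/L, the small nuclease gene smfn had 24 at 10 mg/L, against 10 at 0.5 mg/L, sh3bgrl2 had 26 at 10 mg/L, against 9 at 0.5 mg/L, and si:dkey-77f5.3 had 25 at 10 mg/L, against 7 at 0.5 mg/L. Log2 fold changes of these 7 genes ran from 1.53 to 1.90.

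The genes lower at 10 mg/L were led by a lens crystallin and a ubiquitin ligase. The lens gamma M crystallin crygm2d15 had 199, 170.3, 273 and 225 in the 10 mg/L pools, against 274, 308, 292 and 355 in the 0.5 mg/L pools. It averaged 217 ± 43.5 at 10 mg/L, against 307 ± 34.5 at 0.5 mg/L (SD, n = 4 each), a log2 fold change of -0.52 (standard error 0.14), and its adjusted p of 0.782 from limma is shared with ube3a and zgc:123068 as the smallest of the comparison. The ubiquitin ligase gene ube3a had 20.4, 18.0, 16.8 and 2.42 in the 10 mg/L pools, against 33.0, 25.5, 28.5 and 32.1 in the 0.5 mg/L pools, a log2 fold change of -1.35 (standard error 0.35). The lowest of its 10 mg/L values, in pool d, stands for 1 read, and without that pool the log2 fold change was -0.68. In the exposures between, ube3a had 30.7, 27.9, 23.1 and 33.7 at 1 mg/L and 24.7, 21.9, 20.1 and 24.6 at 2 mg/L, and its slope over all 16 exposed pools was -0.33 per doubling of the concentration (adjusted p = 0.165 from limma). With the pool letter as a block the slope was called (adjusted p = 0.0888 from limma). The letters were not found to pair the pools at 10 and 0.5 mg/L, but the d pools at 0.5, 1 and 2 mg/L deviated in part together.

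The other leading genes lower at 10 mg/L were of mixed kinds. The mitochondrial ribosomal protein gene mrps28 had 14.2, 20.8, 23.1 and 9.67 in the 10 mg/L pools, against 28.1, 30.9, 35.3 and 25.6 in the 0.5 mg/L pools, a log2 fold change of -0.87 (standard error 0.28), and mrpl44 had 5.32, 10.4, 5.24 and 2.42 in the 10 mg/L pools, against 16.5, 10.9, 13.6 and 11.5 in the 0.5 mg/L pools, a log2 fold change of -1.24 (standard error 0.43). apool belongs to the complex that shapes the inner membrane folds, and had 13 reads at 10 mg/L, against 32 at 0.5 mg/L. lamc1, the gamma 1 chain of laminin in basement membranes, had 18.6, 14.2, 6.29 and 7.26 in the 10 mg/L pools, against 26.4, 21.8, 19.0 and 19.2 in the 0.5 mg/L pools, a log2 fold change of -0.99 (standard error 0.33). sord (sorbitol dehydrogenase) had 7 reads at 10 mg/L, against 23 at 0.5 mg/L, cnep1r1 (a subunit of a nuclear envelope phosphatase) had 16 at 10 mg/L, against 35 at 0.5 mg/L, bbs1 (a part of the ciliary BBSome) had 4 at 10 mg/L, against 18 at 0.5 mg/L, and zgc:103625 had 23 at 10 mg/L, against 50 at 0.5 mg/L. The gene with the smallest unadjusted p of all, zgc:123068, had 0, 1, 0 and 0 reads in the 10 mg/L pools and 5, 2, 4 and 5 in the 0.5 mg/L pools. Its ratio of 0.0603 has a 95% counting interval of 0.00144 to 0.388.

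**Figure D2:**
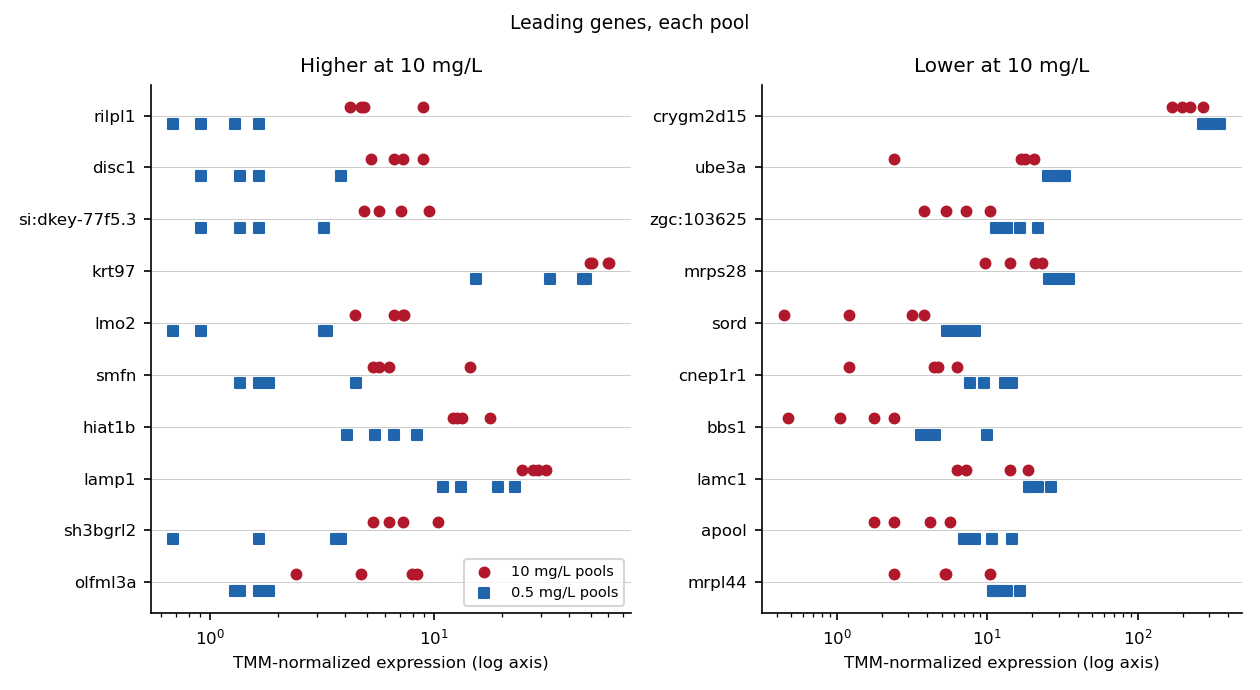
TMM-normalized expression (log axis) of the 10 leading genes higher and the 10 lower at 10 mg/L in each pool, with red circles for 10 mg/L and blue squares for 0.5 mg/L. The groups do not overlap because the genes were chosen so, and most lie below 20 units, where 1 read is worth between 0.641 and 2.42.

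Chaperones included abundant genes with small unadjusted p-values. Proteins that fold in the endoplasmic reticulum are held by hspa5 (BiP), hsp90b1 (GRP94) and the calreticulins. In zebrafish muscle the copy hsp90aa1.1 is needed to fold myosin. A mixed list held HSP90 genes of several compartments, their partners, myosin-folding genes and small heat shock proteins. Of its 18 genes, 14 had a negative log2 fold change and 2 an unadjusted p under 0.05, both lower at 10 mg/L. Of 46 other chaperone and heat shock genes, 33 were negative, and 5 were lower and 1 higher at an unadjusted p under 0.05, against 2.32% lower and 2.35% higher among all genes. The list medians were -0.10 and -0.11, beside 0.01 for all genes, and neither changed sign in any of 27 alternatives. Their size did change, and the first median ran from -0.34 (reads thinned to the smallest pool) to -0.03 (stricter expression limits), and the second from -0.16 to -0.04. No member was called.

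hspa5 had 148, 129, 91.2 and 99.2 in the 10 mg/L pools, against 219.6, 186, 206 and 109 in the 0.5 mg/L pools. It averaged 117 ± 26.3 at 10 mg/L, against 180.1 ± 49.4 at 0.5 mg/L (SD, n = 4 each), a log2 fold change of -0.60 (standard error 0.17). hsp90b1 had 179, 147, 108 and 119 in the 10 mg/L pools, against 274, 189, 235 and 113 in the 0.5 mg/L pools, a log2 fold change of -0.51 (standard error 0.17). In both genes 0.5 mg/L pools a, b and c lie above every 10 mg/L pool, and 0.5 mg/L pool d lies among them. hsp90aa1.2 had 279, 168, 214 and 145 in the 10 mg/L pools, against 329, 439, 366 and 121 in the 0.5 mg/L pools, a log2 fold change of -0.53 (standard error 0.20), with pool d again the lowest at 0.5 mg/L. Its neighbour hsp90aa1.1 had a log2 fold change of -0.40. The 2 genes are related copies, and how reads were assigned between them was not tested. calr had 141, 115, 115 and 114 in the 10 mg/L pools, against 165, 193, 151 and 126 in the 0.5 mg/L pools, a log2 fold change of -0.37 (standard error 0.15), and calr3b, hspa4a and hyou1 had log2 fold changes of -0.48, -0.47 and -0.38. The heat shock 40 gene dnajb1b went the other way, with 27.5, 15.1, 17.8 and 9.67 in the 10 mg/L pools, against 8.26, 9.10, 13.6 and 7.05 in the 0.5 mg/L pools.

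These differences depend on the library of 0.5 mg/L pool d. Without it, hsp90aa1.2 (log2 fold change -0.94, adjusted p = 0.000239), hspa5 (-0.82, adjusted p = 0.00894) and hsp90b1 (-0.76, adjusted p = 0.0210) were called by limma, all lower at 10 mg/L, and these were the 3 genes called. Pool d was the lowest 0.5 mg/L pool in all 3 genes, so their smaller p-values partly follow from leaving it out. Without both d pools, a fit added after seeing the data, limma called the same 3 genes, with adjusted p of 0.00601, 0.0390 and 0.0980. Pools d at 1 and 2 mg/L were low in these genes as well. hsp90aa1.2 was 121, 104, 97.9 and 145 in the d pools from the lowest to the highest exposure, against 193 or more in every other pool at 1 and 2 mg/L. Pools d at 0.5, 1 and 2 mg/L are also the deepest of their groups. The deviations of the d pools from their group means correlated at 0.44 between 1 and 0.5 mg/L and at 0.36 between 2 and 0.5 mg/L over the genes above 100 CPM, as a description across genes. What sets these pools apart, and its part in the chaperone values, was not tested. The group means did not follow the order of the concentrations, and hspa5 averaged 180.1, 126, 146 and 117 from the lowest to the highest exposure. In the 3 control pools, given for orientation, hspa5 ranged from 112 to 193 and hsp90aa1.2 from 353 to 413.

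**Figure D3:**
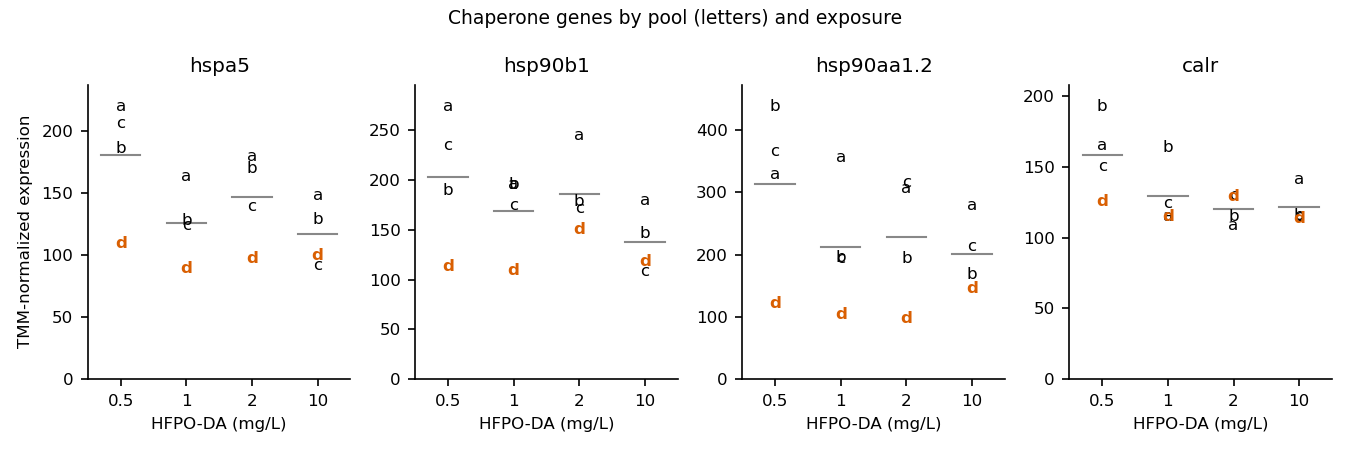
TMM-normalized expression of 4 chaperone genes (vertical axes start at 0) in each pool of the exposures from 0.5 to 10 mg/L, low to high, with letters for the pools, orange for pool d and grey lines for group means. For hspa5, hsp90b1 and hsp90aa1.2, pool d is the lowest pool at 0.5, 1 and 2 mg/L, and the other 0.5 mg/L pools lie above all 10 mg/L pools.

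Further genes of the endoplasmic reticulum, named after their values were seen, lay on both sides of 0. Except for sec61b and ppib, they are members of the list of 46 other chaperone and heat shock genes counted above. xbp1, a transcription factor of the unfolded protein response, had 165, 149, 148 and 145 in the 10 mg/L pools, against 173, 138, 141 and 155 in the 0.5 mg/L pools, a log2 fold change of 0.00 with an interval of -0.28 to 0.29. The disulfide isomerase genes pdia3, pdia4, pdia6 and p4hb had log2 fold changes of -0.12, -0.03, 0.11 and -0.14, and sdf2l1, manf, creld2, canx, sec61b and ppib had -0.11, -0.18, 0.13, 0.37, 0.04 and -0.26. Of 42 proteasome genes 1, psmb3 (log2 fold change -0.38), had an unadjusted p under 0.05, against 2.32% lower among all genes. The heat shock cognate hspa8 had a log2 fold change of -0.08 (interval -0.28 to 0.13).

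Lens crystallins also had several abundant genes on 1 side. Crystallins are the soluble proteins that make the lens transparent, and in fish the gamma M family fills its dense core. Of 37 crystallin genes tested 23 were negative, and 4 were lower and 0 higher at an unadjusted p under 0.05, against 2.32% and 2.35% of all genes. Besides crygm2d15, crygm2d2 had 498, 407, 804 and 452 in the 10 mg/L pools, against 593, 644, 613 and 799 in the 0.5 mg/L pools, a log2 fold change of -0.34 (standard error 0.13), and crygm2d16 had 119, 106, 212 and 121 in the 10 mg/L pools, against 203, 147, 165 and 194 in the 0.5 mg/L pools, a log2 fold change of -0.39 (standard error 0.16). For both genes 10 mg/L pool c was as high as the 0.5 mg/L pools and pools a, b and d were below them. The weakly expressed crygm2b had a log2 fold change of -0.94, with 1 read in 10 mg/L pool c. The most abundant crystallins had values near 0. The gene crygm2d13 had a log2 fold change of -0.08 (interval -0.30 to 0.13) and cryba1b had a log2 fold change of 0.01 (interval -0.22 to 0.23). The gamma M genes are related copies, and how reads were assigned among them was not tested.

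Without 10 mg/L pool c, limma called 4 genes. These were crygm2d15 (log2 fold change -0.63) and crygm2d2 (-0.54), ube3a (-1.53), each lower with an adjusted p of 0.0801, and the globin gene hbae3 (0.64, adjusted p = 0.0969), which was higher. In its group pool c was the highest in crygm2d15 and crygm2d2 and the lowest in hbae3. Their smaller p-values therefore partly follow from leaving it out. With all pools none of the 4 genes was called. Pool c at 10 mg/L also had high values of eye genes, whose part in this was not tested. The cone opsin opn1sw1 had 745, 800.3, 1151 and 597 in the 10 mg/L pools, against 749.7, 755, 761 and 639 in the 0.5 mg/L pools, and the cone transducin gene gngt2b had 924, 877, 1335 and 655 in the 10 mg/L pools, against 1001, 964, 925 and 819 in the 0.5 mg/L pools.

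Among visual opsins, the light receptors of rods and cones, the rod opsin rho had 379, 428, 529 and 299.9 in the 10 mg/L pools, against 327, 291, 336 and 316 in the 0.5 mg/L pools, a log2 fold change of 0.34 (standard error 0.13). Of 8 opsins tested it was the one with an unadjusted p under 0.05, against 2.35% higher among all genes. Without 10 mg/L pool c its log2 fold change was 0.20. The median of the 8 opsins was 0.14, and 0.01 without that pool. Of 33 genes of phototransduction and the outer segment 0 had an unadjusted p under 0.05 in limma in either direction. Among all genes 4.67% did in limma. For the 33 edgeR gave 2, and the share of all genes in edgeR is not given here. The median was 0.05 and turned to -0.07 without 10 mg/L pool c. The retinal transcription factor crx had a log2 fold change of 0.22 and the retinol carrier rbp4 had a log2 fold change of 0.12. The interval of gnat2, the cone transducin alpha gene, was -0.53 to 0.16, and that of pde6c, the cone phosphodiesterase, was -0.34 to 0.48.

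**Figure D4:**
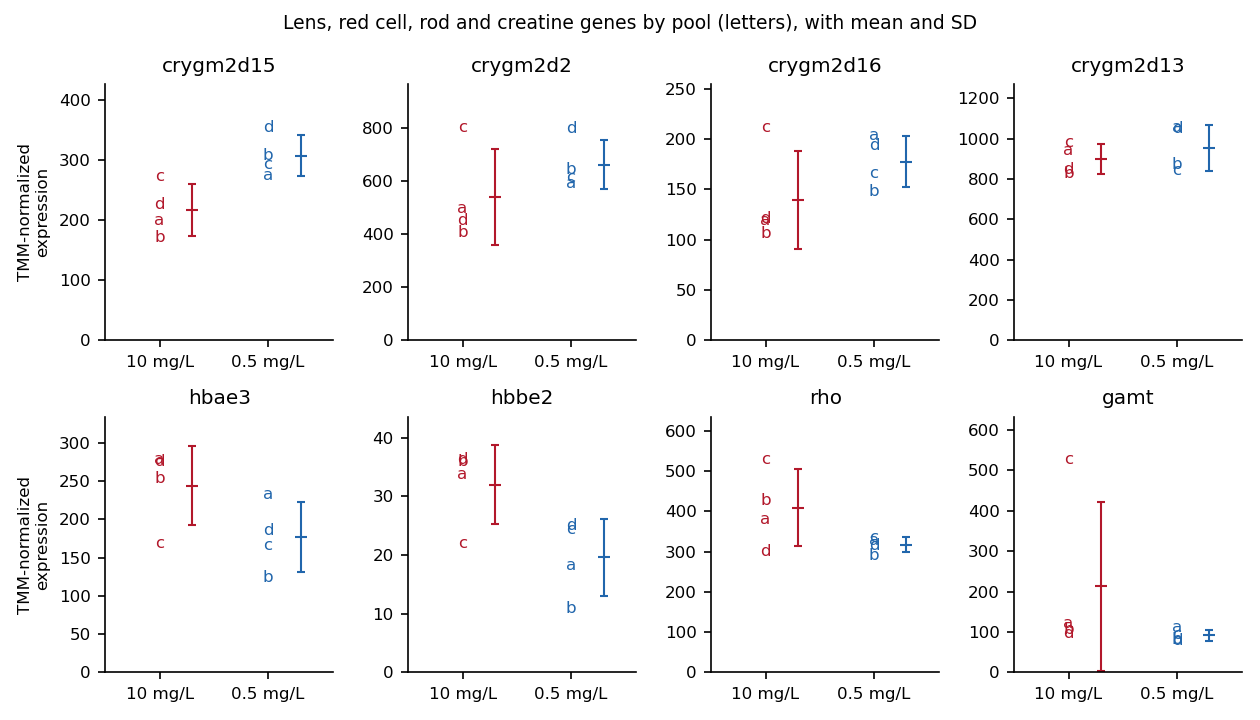
TMM-normalized expression (axes start at 0) of 4 lens crystallins, 2 embryonic globins, the rod opsin rho and the creatine synthesis gene gamt, with letters for the pools at 10 mg/L (red) and 0.5 mg/L (blue), and bars for the mean and SD of 4 pools. Pool c at 10 mg/L stands apart from a, b and d in crygm2d2, crygm2d16, hbae3, hbbe2 and gamt.

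Red cell genes included 4 that were higher at 10 mg/L at an unadjusted p under 0.05 and 0 that were lower, of 28 tested, against 2.35% and 2.32% of all genes. By sign alone 14 of the 28 were above 0 and 14 below. The embryonic alpha globin hbae3 had 278, 254, 169 and 276 in the 10 mg/L pools, against 233, 124, 165 and 185 in the 0.5 mg/L pools, a log2 fold change of 0.47 (standard error 0.15). The beta globin hbbe2 had 33.7, 35.9, 22 and 36.3 in the 10 mg/L pools, against 18.2, 10.9, 24.4 and 25.0 in the 0.5 mg/L pools, a log2 fold change of 0.73 (standard error 0.27), and alas2, the first enzyme of heme synthesis in red cells, had 16.0, 15.1, 7.34 and 12.1 in the 10 mg/L pools, against 9.91, 1.82, 4.07 and 10.3 in the 0.5 mg/L pools, a log2 fold change of 1.1 (standard error 0.45). In all 3 genes pool c was the lowest at 10 mg/L and pool b the lowest at 0.5 mg/L. The fourth gene is lmo2, given above. The median of the 28 was 0.05, turned to -0.08 when values were rescaled to CPM without TMM factors, and had the opposite sign in 15 of 27 alternatives. The beta globin hbbe1.1 had a log2 fold change of 0.15 (interval -0.30 to 0.59), and those of the carbonic anhydrase gene cahz, the blood transcription factor tal1 and the peroxide-removing prdx2 were 0.42, 0.34 and -0.30 on the same scale. On the negative side were the heme synthesis gene urod (log2 fold change -1.03), the red cell transcription factors klf17 (log2 fold change -0.89) and klf1 (log2 fold change -0.52), the globin hbbe3 (log2 fold change -0.63) and the anion exchanger slc4a1a (log2 fold change -0.61), each on 30 reads or fewer over the 8 pools. Globin genes are related copies, and the assignment of reads among them was not tested.

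In the list of muscle calcium handling and creatine metabolism, the leading gene was gamt. It encodes the enzyme that completes creatine synthesis, and had 121, 107, 527 and 96.7 in the 10 mg/L pools, against 111, 81.9, 95 and 79.5 in the 0.5 mg/L pools. A single pool, 10 mg/L pool c, holds the difference. The log2 fold change was 0.82 in limma and 1.26 in edgeR, which called it (adjusted p = 7.9e-05), and without that pool it was 0.25 in limma. The glycogen phosphorylase pygmb had 52.3, 53.9, 60.8 and 96.7 in the 10 mg/L pools, against 41.3, 51.0, 33.9 and 46.8 in the 0.5 mg/L pools, a log2 fold change of 0.57 (standard error 0.20), and the parvalbumin pvalb6 had 23.9, 21.8, 28.3 and 33.9 in the 10 mg/L pools, against 13.2, 20.0, 19.0 and 13.5 in the 0.5 mg/L pools, a log2 fold change of 0.70 (standard error 0.27). In both of these the pools did not overlap, as in 1.31% of all genes with 10 mg/L higher. The genes gamt, pygmb and pvalb6 were the 3 of the 33 genes of this list with an unadjusted p under 0.05. Which tissues their reads came from was not tested, so they are not taken as 3 muscle genes. Among all genes 2.35% were higher at that p. The median of the list was 0.07.

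Sarcomere genes went in both directions. Of 50 skeletal muscle genes 3 were higher and 4 lower at an unadjusted p under 0.05, against 2.35% higher and 2.32% lower among all genes. The fast myosin light chain myl1 had 711, 843, 877 and 655 in the 10 mg/L pools, against 1034, 804, 1122 and 953 in the 0.5 mg/L pools, a log2 fold change of -0.34 (standard error 0.11), and myl13 had a log2 fold change of -0.33, whereas myl10, another light chain, had 315, 342, 272 and 242 in the 10 mg/L pools, against 254, 227, 219.8 and 229 in the 0.5 mg/L pools, a log2 fold change of 0.32 (standard error 0.13). Of the fast troponin I genes tnni2a.1 had a log2 fold change of -1.05 and tnni2b.2 had a log2 fold change of -0.42, and of the actins actc1a had a log2 fold change of 0.87 and acta1a had a log2 fold change of 0.34. The median of the list was -0.01.

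Of 27 cardiac genes, 1 (actc1a) was higher and 1 (the atrial light chain myl4, log2 fold change -0.81) lower at an unadjusted p under 0.05. Among all genes 2.35% were higher and 2.32% lower at that p. The same actc1a is also counted in the skeletal muscle list. The median of the cardiac list was -0.20. Without 10 mg/L pool d it was -0.00, beside 0.04 for all genes. vmhc, the ventricular myosin heavy chain, had 137, 101, 71.3 and 60.5 in the 10 mg/L pools, against 121, 102, 109 and 78.2 in the 0.5 mg/L pools, a log2 fold change of -0.20 (standard error 0.18). The other heart markers were read too rarely to compare closely. myl7 had 15 reads at 10 mg/L, against 18 at 0.5 mg/L, a log2 fold change of -0.88. For cmlc1 there were 8 at 10 mg/L, against 14 at 0.5 mg/L, a log2 fold change of -1.02. Neither had an unadjusted p under 0.05 in limma.

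Genes of fatty acid breakdown, many of them targets of PPARalpha in rodents, gave no call. Of 48 genes tested 30 were positive. In either direction 0 had an unadjusted p under 0.05 in limma, against 4.67% of all genes. edgeR gave 1 lower, without a share of all genes in edgeR to set it against. The median was 0.08. The 2 most abundant, etfb (electron transfer to the respiratory chain) and hadhb (the trifunctional protein), had log2 fold changes of 0.12 (interval -0.28 to 0.52) and 0.11 (interval -0.29 to 0.52). Among targets named here for their role, angptl4, a secreted lipase inhibitor, had 23, 17.0, 21 and 14.5 in the 10 mg/L pools, against 26.4, 9.10, 21.7 and 19.9 in the 0.5 mg/L pools, a log2 fold change of 0.05 (standard error 0.30). cpt1b, which brings fatty acids into mitochondria, had a log2 fold change of 0.95 on 17 reads at 10 mg/L, against 7 at 0.5 mg/L. acox3, ehhadh, pdk4 and ucp3 had 12, 9, 10 and 7 reads at 10 mg/L, against 12, 7, 10 and 3 at 0.5 mg/L. At these numbers a 2-fold difference is hard to detect. Of 15 lipid binding genes 0 had an unadjusted p under 0.05, and fabp3, the muscle and heart form, had a log2 fold change of 0.20 (interval -0.09 to 0.49). Of 19 genes of cholesterol and lipid synthesis 1, mvk, was lower at an unadjusted p under 0.05 (3 reads at 10 mg/L, against 11 at 0.5 mg/L). Among all genes 2.32% were lower at that p.

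Liver plasma proteins had 4 of 40 genes lower and 0 higher at an unadjusted p under 0.05, against 2.32% lower and 2.35% higher among all genes, with a median of -0.13. The iron carrier transferrin, tfa, had 139, 179.7, 68.1 and 62.9 in the 10 mg/L pools, against 203, 133, 189.9 and 90.4 in the 0.5 mg/L pools, a log2 fold change of -0.53 (standard error 0.21), and the protease inhibitor serpina1l had 22.2, 28.4, 7.34 and 19.3 in the 10 mg/L pools, against 47.9, 29.1, 51.5 and 12.8 in the 0.5 mg/L pools, a log2 fold change of -0.82 (standard error 0.32). The groups overlap in both, and 10 mg/L pools c and d and 0.5 mg/L pool d were low in tfa. The complement gene c3a.1 had a log2 fold change of -0.68 and vtna had a log2 fold change of -1.34 on 3 reads at 10 mg/L, against 11 at 0.5 mg/L. Without 10 mg/L pool c the list median was 0.00 and 2 of its genes reached an unadjusted p under 0.05, and without 0.5 mg/L pool d these values were -0.27 and 6. The shares of all genes in these 2 fits are not given here. The abundant apolipoproteins apoa1b and apoa1a had log2 fold changes of -0.03 and -0.17. Of 9 digestive enzymes of the pancreas 0 had an unadjusted p under 0.05, and trypsin (try) ranged from 1.21 to 31.2 at 10 mg/L and from 7.05 to 35.3 at 0.5 mg/L.

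The 3 mitochondrial lists had medians slightly below 0, and their counts at an unadjusted p under 0.05 stand against 2.32% lower and 2.35% higher among all genes. Of 60 mitochondrial ribosomal protein genes 3 were lower (mrps28, mrpl44 and mrpl9, the last with a log2 fold change of -1.08) and 0 higher at an unadjusted p under 0.05, with a median of -0.06. Of 38 complex I genes 2 were lower, ndufs5 (log2 fold change -0.35) and ndufb4 (log2 fold change -0.35), and of 44 genes of complexes II to V 2 were lower, cox8a (log2 fold change -0.32) and sdhaf3 (log2 fold change -1.08). In ndufb4, cox8a and ndufs5 the lowest value was that of 10 mg/L pool d, the shallow library. Without that pool the 3 list medians were 0.06, 0.04 and 0.05, on the other side of 0, beside a median of 0.04 for all genes. atp5b, the beta subunit of ATP synthase, had a log2 fold change of 0.05 (interval -0.17 to 0.27). In the citric acid cycle, sucla2 (succinyl-CoA ligase) had 38.1, 42.6, 41.9 and 43.5 in the 10 mg/L pools, against 26.4, 23.7, 33.9 and 35.9 in the 0.5 mg/L pools, a log2 fold change of 0.48 (standard error 0.22).

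In the remaining groups single genes had an unadjusted p under 0.05, which 2.35% of all genes reached as higher and 2.32% as lower. Among genes of neurons, the sodium pump subunit atp1a3a had 225, 236, 279.9 and 327 in the 10 mg/L pools, against 173, 204, 189.9 and 253 in the 0.5 mg/L pools, a log2 fold change of 0.38 (standard error 0.14). The vesicular acetylcholine transporter slc18a3a had 17.7, 11.4, 14.7 and 9.67 in the 10 mg/L pools, against 18.2, 21.8, 23.1 and 21.2 in the 0.5 mg/L pools, a log2 fold change of -0.67 (standard error 0.30). Synaptic genes had 1 of 44 higher (calm2a, log2 fold change 0.33) and 2 lower (slc18a3a and stxbp1b), with a median of 0.12. In the list of GABA and glycine neurons gabarapl2, an autophagy gene that is not a marker of these neurons, had a log2 fold change of 0.80 and the interneuron transcription factor dlx5a had a log2 fold change of -0.79, 1 each way of 22. Neither axon growth (0 of 45) nor glia and myelin (0 of 32) had such a gene. The hormone genes ins (insulin) and npy (neuropeptide Y) had 3 and 14 reads at 10 mg/L, against 11 and 5 at 0.5 mg/L.

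At an unadjusted p under 0.05, which 2.35% of all genes reached as higher and 2.32% as lower, 2 of 88 genes of DNA replication and mitosis were higher (cdca5 and mcm2) and 5 lower (pold1, orc2, kif11, gins2 and cdc45). The polymerase gene pold1 had 6.20, 8.51, 10.5 and 2.42 in the 10 mg/L pools, against 13.2, 14.6, 12.2 and 12.8 in the 0.5 mg/L pools, and the replicative helicase gene mcm2 had 31.9, 37.8, 28.3 and 19.3 in the 10 mg/L pools, against 11.6, 14.6, 33.9 and 23.1 in the 0.5 mg/L pools. By sign alone 41 of the 88 were above 0 and 47 below. In the cytoskeleton list 2 of 47 were lower at the same p, the tubulin tuba8l4 (713, 709, 698 and 614 at 10 mg/L, against 845, 839, 815 and 729.6 at 0.5 mg/L) and arpc3 of the actin branching complex (log2 fold change -0.44). At that p lamp1 and the proton pump subunit atp6v1c1b (log2 fold change 0.83) were higher and ctsz (log2 fold change -1.16) and atp6v1d (log2 fold change -0.49) lower of 30 lysosome genes. In the skin lists, the water and glycerol channel aqp3a had 25.7, 22.7, 25.2 and 29.0 in the 10 mg/L pools, against 11.6, 14.6, 19.0 and 20.5 in the 0.5 mg/L pools, a log2 fold change of 0.66 (standard error 0.28). The secretory gene agr1 had 20.4, 20.8, 14.7 and 12.1 in the 10 mg/L pools, against 21.5, 38.2, 21.7 and 24.4 in the 0.5 mg/L pools, a log2 fold change of -0.62 (standard error 0.28). In the matrix the cartilage collagen col9a2 had a log2 fold change of -0.35 and the collagen-modifying plod1a had a log2 fold change of 0.74.

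In the defence lists, too, single genes had an unadjusted p under 0.05 and none was called. Among all genes 2.35% were higher and 2.32% lower at that p. Among antioxidant genes sod2, the mitochondrial superoxide dismutase, had 34.6, 37.8, 37.7 and 16.9 in the 10 mg/L pools, against 34.7, 58.2, 55.6 and 40.4 in the 0.5 mg/L pools, a log2 fold change of -0.60 (standard error 0.24), with the lowest value in 10 mg/L pool d, and the other such gene of 35, ftr82, is a TRIM family gene that the list holds although it is not an antioxidant enzyme. In drug metabolism fmo5 had a log2 fold change of 1.14 and gsto2 had a log2 fold change of -1.17, 1 each way of 57 genes. In the interferon and inflammation list 2 of 54 were lower, c3a.1 and the chemokine gene cxcl12a (log2 fold change -0.57). Of 25 neutrophil and macrophage genes 0 had an unadjusted p under 0.05, and the lysozyme gene lyz had a log2 fold change of -0.29 (interval -0.90 to 0.31). Of 31 thyroid and pituitary genes 1 (npy) was higher and 1 (ins) lower at that p.

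A further list holds the genes that the study had reported at every exposure. That list was chosen on these same pools and is not independent of them. Its genes had been called against the same control at both 10 and 0.5 mg/L. That choice favours genes with like values at these 2 exposures, so small differences between them partly follow from it. Of its 38 names 37 could be matched and all were tested. In either direction 0 had an unadjusted p under 0.05 in limma, against 4.67% of all genes. A list of 37 is too short to tell 0 from that share. Their median log2 fold change was 0.04. The visual genes opn1mw1 and opn1sw2 had log2 fold changes of 0.13 and 0.12. The synaptic gene syt5b had a log2 fold change of 0.22, the GABA-synthesizing gad1b had a log2 fold change of 0.00, the aldolase aldocb had a log2 fold change of -0.02 and the ribosomal rps15a had a log2 fold change of 0.07. By sign 22 were above 0 and 15 below. The ends of the list were tmem192 (log2 fold change 0.62) on one side and znfl2a (log2 fold change -0.84), obsl1a (log2 fold change -0.60) and fbxl22 (log2 fold change -0.36) on the other, with 30 reads or fewer each over the 8 pools. The intervals of 26 of the 37 lay within 2-fold.

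**Figure D5:**
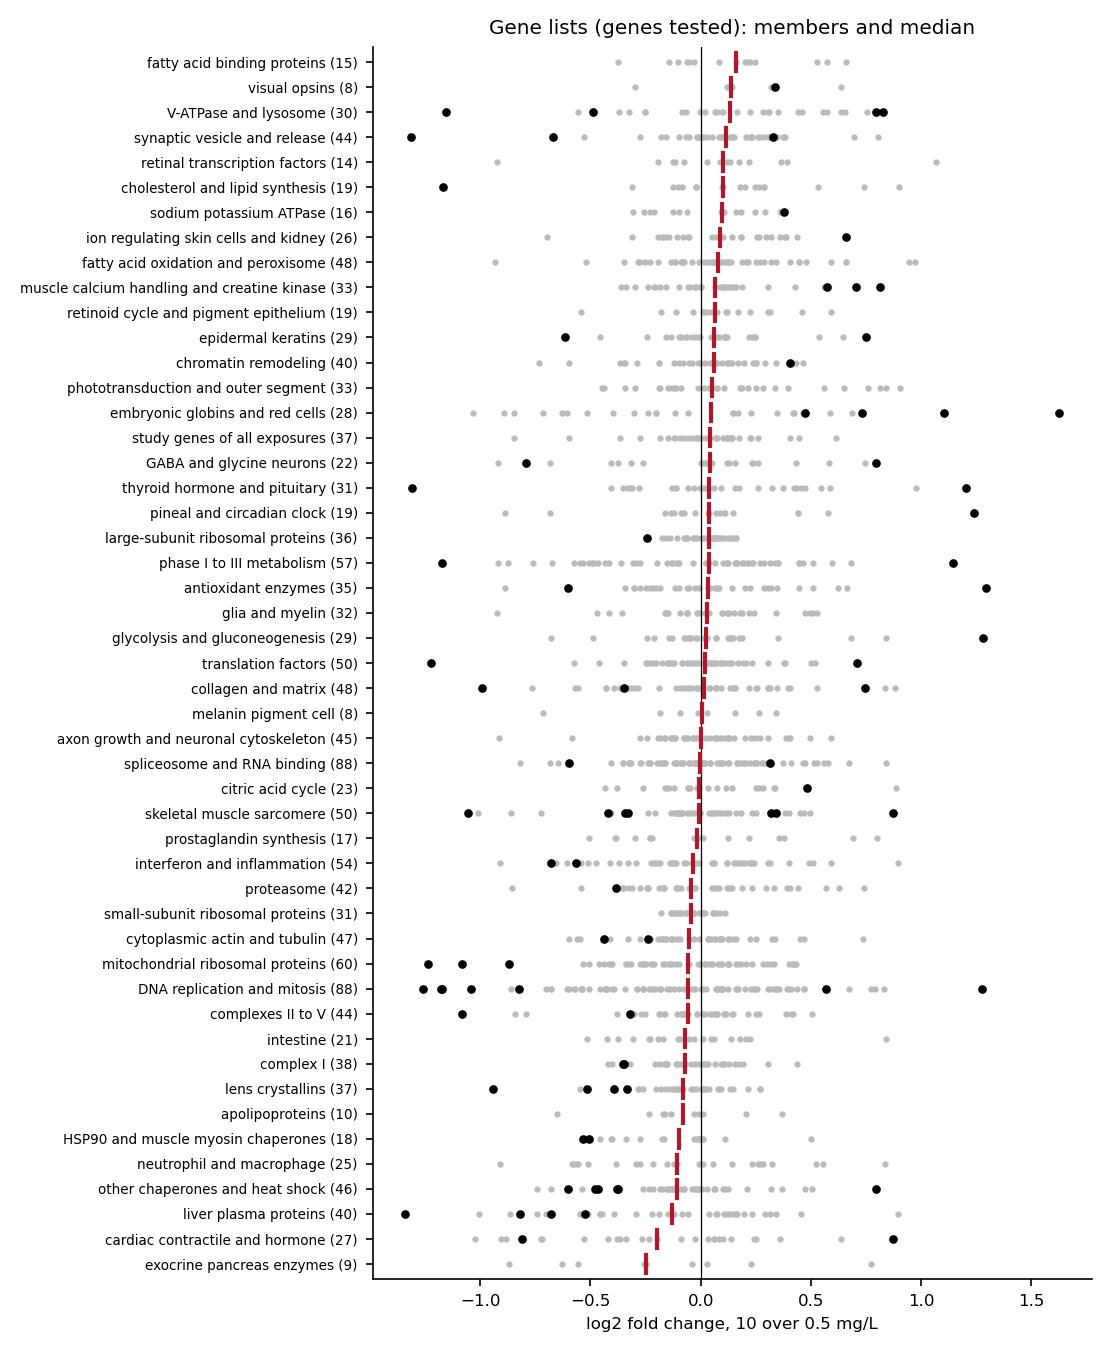
Log2 fold change of 10 over 0.5 mg/L for the tested members of 49 gene lists (numbers tested in brackets), with black points for an unadjusted p under 0.05 in limma, grey points for the others and red bars for the list median. The medians run from -0.25 for pancreas enzymes to 0.16 for fatty acid binding proteins.

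The exposures between were used to ask whether the differences followed concentration. A slope on the log2 concentration over all 16 exposed pools called 0 of 6898 genes in limma, and 157 genes with a positive slope (2.28%) and 172 with a negative slope (2.49%) had an unadjusted p under 0.05, together 4.77%. edgeR called 2 with a positive slope, gamt and anp32e, a histone chaperone gene. anp32e had 135, 352, 189.8 and 184 in the 10 mg/L pools, against 125, 133, 151 and 135 in the 0.5 mg/L pools, and 10 mg/L pool b stands apart. The slope shares its end pools with the comparison of 10 and 0.5 mg/L, so a separate contrast of 2 against 1 mg/L was taken from the other 8 pools. It called 0 of 6929 genes in limma and 2 in edgeR, ada and ptgdsb.1, and 337 (4.86%) were under an unadjusted p of 0.05, with 2.41% higher and 2.45% lower at 2 mg/L. Of the genes higher at 10 than at 0.5 mg/L with an unadjusted p under 0.05, 156 were tested there and 80 (51.3%) were higher at 2 than at 1 mg/L. Of the genes lower at 10 mg/L, 156 were tested there and 76 (48.7%) were higher at 2 than at 1 mg/L, beside 50.2% of all 6585 genes tested in both. These exposures are 2-fold apart, whereas 10 and 0.5 mg/L are 20-fold apart.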

How the data were processed

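The authors pooled whole embryos at 72 hpf and prepared barcoded, poly(A)-primed libraries with unique molecular identifiers. Reads were sorted and trimmed (Trimmomatic 0.40), cleared of ribosomal RNA, mapped with STAR to GRCz10 (the submitters' processing notes name GRCz11 as well), deduplicated (UMI-tools 1.1.2), counted on genes (HTSeq 0.13.5) and TMM-normalized. The deposited values are a signal, TMM-normalized expression of 9368 genes in 19 pools. Counting used HTSeq's defaults, which count reads by strand. Zeros had been replaced by 0.5 reads. Dividing by the value of 1 read gave whole reads for 100% of values (tolerance 0.01), and these served for depth, CPM, edgeR 4.0.16 and DESeq2 1.42.0. Groups came from the sample labels. Other value columns left unused numbered 0.

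limma 3.58.1 in R 4.3.3 (lmFit, eBayes with trend, two-sided) was fitted to log2(value + 0.5) of the 4 pools at 10 mg/L and the 4 at 0.5 mg/L over all 6850 genes whose mean reached the low-expression limit (nearly 3 CPM), and p-values were adjusted over these. For weakly expressed genes, fold changes on this scale can be smaller or larger than the ratio of their summed reads. The members and gene lists were chosen with earlier results of these data known. The rule for naming took every called gene; the 10 higher and 10 lower genes of smallest p with at least 20 reads and pools that do not overlap; the 3 genes of smallest adjusted p; and, for each list, the 2 most abundant members and up to 4 with an unadjusted p under 0.05. Further genes, among them lipid and endoplasmic reticulum genes, were named after their values were seen, and some genes that the rule took have values in the figures or counts only. Of the study's 38 genes, pde6hb was found under a clone name through RefSeq synonyms, and col22a1 was not matched. The fits were tested on simulated reads with 200 changed genes. Of those above 50 CPM, limma recovered 67.7% of 34 genes changed by 2-fold and 100% of 35 changed by 4-fold. Over all genes tested it made 8 false calls. Intervals from reads cover counting error only. Gene coordinates and sequences are not used here.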

Additional observations from a re-analysis of the deposited data

Results flagged for a closer look

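For the 89 named genes with an unadjusted p under 0.05 in limma, the 4 pools of each exposure were searched for a pool far from the others (Dixon's ratio above its 95% critical value). This flagged 14 of 178 groups (7.87%). For normally distributed values about 1 in 20 would be flagged. These genes were chosen by p and some have few reads, so that rate need not hold for them. At 10 mg/L, pool c stood apart in gamt (527, the others 96.7 to 121) and crygm2d16 (212, the others 106 to 121). Pool a at 10 mg/L stood apart in rilpl1 (8.86, the others 4.19 to 4.84), calr (141, the others 114 to 115) and myl4 (23.9, the others 8.39 to 9.67). Pool d at 10 mg/L, the shallowest library, was high in smfn (14.5, the others 5.32 to 6.29) and low in ndufb4 (53.2, the others 83.2 to 87.7), sod2 (16.9, the others 34.6 to 37.8) and tuba8l4 (614, the others 698 to 713). At 0.5 mg/L, pool d was high in smfn (4.49, the others 1.36 to 1.82) and low in gsto2 (4.49, the others 12.7 to 13.6). Pool a at 0.5 mg/L was high in bbs1 (9.91, the others 3.64 to 4.49), pool c was high in rpl39 (1743, the others 1052 to 1145), and pool b was low in eef1a1a (7.28, the others 16.3 to 17.3). All of these are TMM-normalized values.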

How the results depend on the processing

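Between 10 and 0.5 mg/L 0 genes were called with a pseudocount of 0.1 or 2, a mean above 10 CPM, 20 reads, zeros set to 0, CPM, quantile or recomputed TMM scaling, limma without trend, with pool weights or voom, thinned reads, 1 fit over 5 groups, DESeq2, an adjusted p under 0.05, and (chosen after seeing the data) the expression limit applied to the deposited values. Without a filter on the mean 2 genes were called (gamt and ube3a), edgeR called 1, and leaving out both d pools, also added later, gave 3. Leaving out 1 pool at a time gave 0 to 4 genes. DESeq2 had 74 genes with an unadjusted p under 0.05 against 320 in limma. The concentration trend called 2 genes in edgeR and 2 against 1 mg/L called 2 in edgeR. No scaling moved the median of all genes by over 0.1. Of the 89 named genes with an unadjusted p under 0.05, cxcl12a changed sign (0.12 in thinned reads) and the others did not, while genes near 0 changed sign more often, such as gngt2b in 11 of 27 alternatives. Over all alternatives 36 values of genes and 27 list medians moved by more than the spread between pools, in 13 cases a gene passed the threshold it had missed, and 6943 gene values and 1296 list medians did neither.

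The letters a to d join different pools of embryos. With a replicate block for them 0 genes were called between 10 and 0.5 mg/L, 0 between 2 and 1 mg/L and 1 along the trend (ube3a). The deviations of same-lettered pools correlated at 0.01, -0.01, -0.00 and -0.03 between 10 and 0.5 mg/L over all genes tested, and at 0.12, -0.03, -0.01 and 0.17 over those above 100 CPM. As not every pair was over 0.1, the letters were not taken to pair the pools at 10 and 0.5 mg/L. Of the 4 pools at 10 mg/L, 1 correlated best with its own letter. Above 100 CPM the d pools correlated at 0.44 between 1 and 0.5 mg/L, 0.38 between 2 and 1 mg/L and 0.36 between 2 and 0.5 mg/L. The trend and the contrast of 2 against 1 mg/L use these pools. Depth limits what is seen: below 10 CPM the median gene had 11 reads over the 8 pools.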
